A study of Mus musculus with 12 samples.

Results

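Messenger RNA levels in the lung and the liver of sham-operated mice were compared, gene by gene, to describe how the 2 organs differ before any septic challenge. The members were the 3 sham lung and 3 sham liver libraries, 6 of the 12 libraries in the series. They were chosen by organ and surgery label alone, and the libraries from mice with cecal ligation and puncture (CLP), an operation that causes abdominal sepsis, were left out. All 6 libraries came from wild-type C57BL/6J mice kept on chow under specific pathogen-free conditions, whose organs were taken 6 h after sham surgery. The groups differed in organ only, so the sham operation is common to both. No unoperated group is among the samples, and a sham-operated organ is therefore not a naive organ. Whole-tissue RNA was measured, so fewer cells of a type and less RNA per cell cannot be told apart at any gene. Whether the libraries are from separate mice is not stated in the labels, so p-values refer to the spread among these libraries, which may be technical.

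Most liver mass is hepatocytes, polarised epithelial cells that make plasma proteins, bile acids and glucose and clear drugs and ammonia. Their blood flows through sinusoids lined by open, scavenging endothelium, in which the Kupffer cells, the resident macrophages, sit. The lung is built for gas exchange: flat type 1 cells and surfactant-making type 2 cells line the alveoli, secretory and ciliated cells line the airways, and a dense closed capillary bed carries the whole cardiac output. Alveolar macrophages live on the air side and a pool of neutrophils and monocytes lies along the vessel walls. Both organs meet bacterial products early in sepsis, the liver from portal blood and the lung from air and from mixed venous blood.

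Total counts ran from 12060375 to 15854117 in liver and from 11946233 to 12931365 in lung, where 3 counts equalled 0.189 to 0.251 CPM (counts in each 1000000 counts of the library). The organ labels held in every library: Alb, the albumin gene, took 4.68%, 5.80% and 6.91% of the liver counts and 0.00880%, 0.00171% and 0.00366% of the lung counts, and Sftpc, the gene of surfactant protein C, took 1.29%, 1.401% and 1.35% of the lung counts. A few genes dominated the liver. Its 10 highest genes held 18.9% to 20.7% of the counts, against 6.595% to 7.39% in lung, and 88 to 111 genes were enough for 50% of the liver counts where the lung needed 1052 to 1094. Mitochondrially encoded genes took 4.16% to 4.55% of counts in liver and 1.71% to 1.88% in lung. Because of this uneven make-up, how libraries were scaled mattered. The main values are CPM on library sizes scaled by TMM, edgeR's trimmed mean of M values, and on unscaled library totals every lung minus liver difference was 1.31 higher on the log2 scale, a factor of 2.48. All calls of higher in lung keep their direction on totals. Of the calls of higher in liver by more than 2-fold, 280 turn direction on totals, and list counts on totals are given beside those that change by more than 1.5 times and by 2 genes or more.

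**Figure D1:**
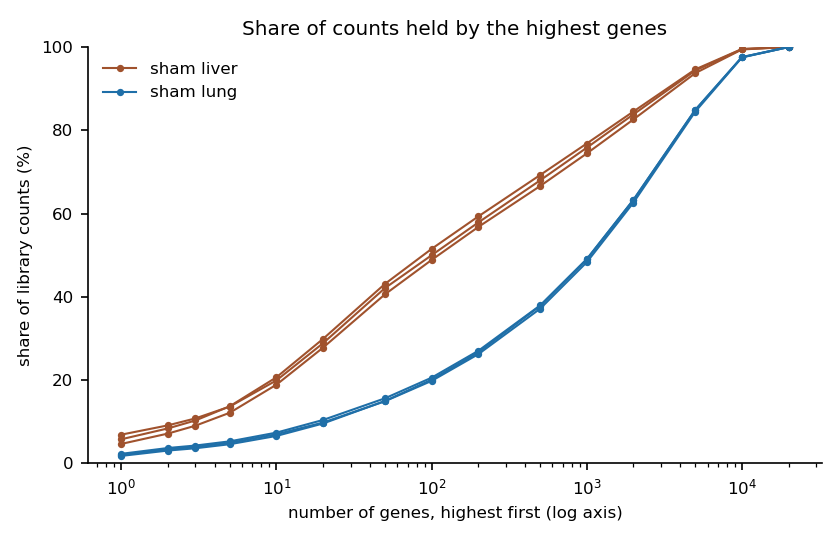
Share of library counts (percent, linear axis) held by the highest-ranked genes (number of genes, log axis) in each of the 3 sham liver and 3 sham lung libraries, with 1 line per library. The liver lines rise earlier: 100 genes held 48.9% to 51.5% of liver counts and 19.8% to 20.6% of lung counts.

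Of 15414 genes tested with edgeR's quasi-likelihood test, 84.1% differed between the organs at an adjusted p below 0.05, 45.6% with the higher level in lung and 38.5% in liver. A stricter test against a 2-fold difference was therefore used for all calls below. It called 4767 genes higher in lung (30.9%) and 3256 higher in liver (21.1%), 52.1% of genes in all, with a median log2 difference (lung minus liver) over all genes of 0.15. The share of these calls that were higher in lung was 59.4%, against 85.7% on library totals and 66.4% with upper-quartile scaling. Differences of 5 or more on the log2 scale numbered 1344 towards lung and 726 towards liver (2097 and 575 on totals). At 10 or more they numbered 126 and 261, an order that turned on totals (204 and 173). At the other end, 4541 genes (29.5%) had a 95% interval that lay within 1 log2 unit of 0. Genes were grouped in 73 lists of cell type markers and pathways. Of the tested genes in the immune lists, 128 of 328 were higher in lung and 101 in liver (39.0% and 30.8%), against 30.9% and 21.1% of all genes. In the vascular lists 96 of 150 were higher in lung and 22 in liver, and in the stromal lists 57 of 83 and 14. The metabolic lists leaned the other way, with 45 of 384 genes higher in lung and 270 in liver. On totals the immune counts were 179 and 66, the vascular 121 and 17, the stromal 64 and 7 and the metabolic 78 and 207. Marker lists of cells that only 1 organ holds differ by how they were built, and their counts check the labels rather than test them.

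**Figure D2:**
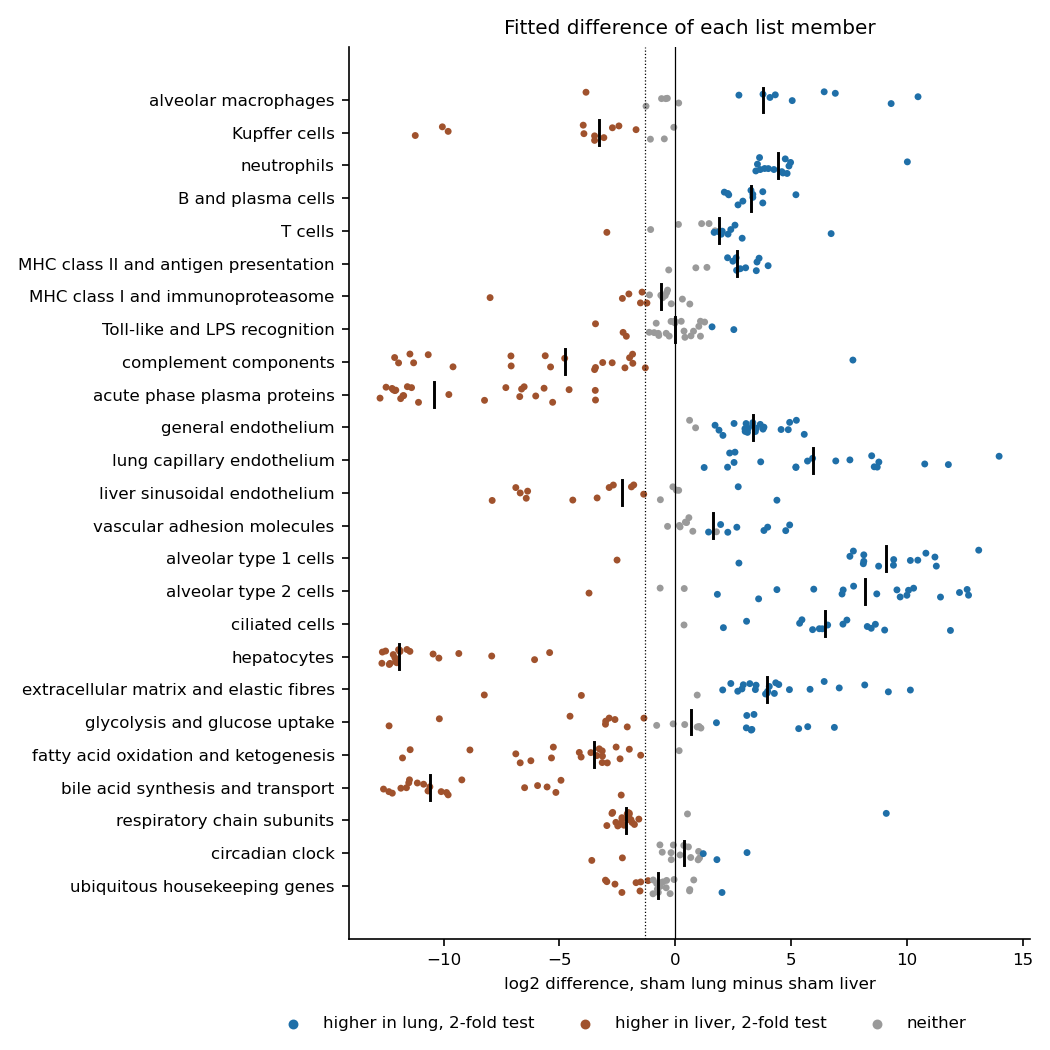
Fitted log2 difference, sham lung minus sham liver (horizontal axis), of each tested member of 25 of the gene lists (rows), coloured by the 2-fold test, with a black bar at the list median. The solid line marks no difference on TMM scaling and the dotted line, at -1.31, no difference on library totals. Hepatocyte, acute phase and bile acid genes lie left of both lines. The neutrophil, general endothelial, lung capillary and alveolar type 1 and type 2 lists lie mostly far right, and the liver sinusoidal list has its median at -2.28.

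Secretory and surfactant genes were far higher in lung. Scgb1a1, the club cell secretoglobin of the airways, had its level in lung at 11510, 14610 and 12950 CPM, and stood at 3.54, 0.750 and 3.23 CPM in liver (log2 difference 12.31 ± 0.49 SE, adjusted p = 3.71e-09). Sftpc reached 8222, 8914 and 8507 CPM in lung and at most 3.05 in liver, and Sftpb, which encodes surfactant protein B, reached 2743, 3203 and 3155 CPM against at most 1.22. Among 20 markers of alveolar type 2 cells 17 were higher in lung and 1, Scd1, a fatty acid desaturase that hepatocytes also use, was higher in liver; the list median was 8.20. Of 16 type 1 markers 15 were higher in lung (median 9.10), among them Ager, the receptor for advanced glycation end products, at 1263, 1276 and 1229 CPM. Cldn18, a tight-junction claudin of the alveolus, had 416, 408 and 419 CPM in lung and 1 count over the 3 liver libraries. Ciliated cell genes were higher in lung in 15 of 16 cases, among them the cilium regulator Foxj1 at 38.2, 49.1 and 51.2 CPM against 0.244 to 1.21.

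Airway secretory markers were less clear-cut, with 7 of 14 higher in lung and 3 in liver. Cyp2f2, a cytochrome P450 that serves as a club cell marker in lung, stood at 1648, 2105 and 1876 CPM in lung and 1996, 2087 and 2060 in liver, and the libraries overlapped. Its log2 difference was -0.13 ± 0.16 with a 95% interval from -0.48 to 0.23 on TMM scaling and turned to 1.18 on totals. Pigr, the receptor that carries IgA across epithelia, was lower in lung, at 24.3 to 30.3 CPM against 1501 to 1928 in liver (log2 difference -6.08 ± 0.19, adjusted p = 6.80e-10). The airway defence genes Bpifa1 and Bpifb1 varied between lung libraries and did not pass: Bpifa1 had 12.1, 128.8 and 5.22 CPM, with 1 count over the liver libraries. Without lung replicate 2 both passed (adjusted p in edgeR 6.84e-05 for Bpifa1 and 1.57e-05 for Bpifb1), and Bpifa1 also without lung replicate 3 (0.0417). The basal cell keratin Krt5 was near 0 in both organs, with at most 0.295 CPM in any library.

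Nkx2-1, the master regulator of lung epithelium, had 92.8, 116.9 and 118.5 CPM in lung and no count in any liver library, which makes it at least 951-fold higher when 3 counts over the liver libraries are taken as the floor. Tbx5, a T-box factor of lung mesenchyme and heart, was likewise without a count in liver. In all, 21 of 25 lung factors were higher in lung, and Sox9, known in lung tip progenitors and in bile duct cells, was higher in liver at 4.84 to 8.51 CPM against 0.161 to 0.394. On the liver side 22 of 27 hepatic factors and nuclear receptors were higher in liver (17 on library totals). Hnf4a, the nuclear receptor that drives hepatocyte identity, stood at 1334, 1340 and 1082 CPM in liver and 1.18, 0.0984 and 0.344 in lung. Onecut2, a homeodomain factor, had no count in lung and was at least 2935-fold higher in liver. The forkhead factors that both foregut organs use did not separate on TMM scaling: Foxa1 differed by 0.39 ± 0.12 and Foxa2 by -0.58 ± 0.27, neither past the 2-fold test. On totals, where every difference is 1.31 higher, Foxa1 lies more than 1 log2 unit towards lung and Foxa2 turns to 0.73. Foxa3 did separate, at 82.8 to 101.2 CPM in liver and at most 0.148 in lung.

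Transcription factors of hepatocytes bind short DNA motifs near the start of many of their genes. RefSeq promoter windows (GRCm38.p6, 250 bases before to 50 after the start) were searched on both strands for the letters of such motifs. Among them were GTTAAT, a half-site of HNF1, CAAAGTCC, the core of the HNF4 site, and TTGCGCAA, the core of the C/EBP site. Among the 100 genes of the largest difference towards liver, 80 had a window; 23 of their 90 windows (25.6%) held GTTAAT, against 6 of 92 (6.52%) for the 100 largest towards lung and 7.10% of all 32851 windows. CAAAGTCC stood in 8 of 90 windows towards liver (8.89%), in 0 of 92 towards lung and in 1.42% of all. The letters CTCAAG, an NKX2-1 element, were no more frequent towards lung (14.1%) than in all windows (15.9%). TATAAA, the letters of the TATA box, stood in 23 of 90 windows towards liver (25.6%), in 16 of 92 towards lung (17.4%) and in 13.6% of all. The excess towards liver was thus not limited to motifs of hepatocyte factors. Other motifs are not compared here. A match is a description of the letters and no evidence of binding. The 120 bases before the start are printed 5' to 3' for 7 liver genes with a GTTAAT match, for Cyp8b1, a bile acid enzyme, with an HNF4 match, and for Sftpb as a lung gene with 2 CTCAAG matches; capitals mark the match on either strand, and GTTAAT matches on the other strand read ATTAAC.
Alb (chr5:90460750-90460869, plus strand): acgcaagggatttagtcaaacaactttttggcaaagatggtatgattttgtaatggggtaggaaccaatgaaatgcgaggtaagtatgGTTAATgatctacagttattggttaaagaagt
Fga (chr3:83026033-83026152, plus strand): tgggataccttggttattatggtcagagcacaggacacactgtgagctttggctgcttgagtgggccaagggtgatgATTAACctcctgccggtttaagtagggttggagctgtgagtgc
Fgb (chr3:83049864-83049983, minus strand): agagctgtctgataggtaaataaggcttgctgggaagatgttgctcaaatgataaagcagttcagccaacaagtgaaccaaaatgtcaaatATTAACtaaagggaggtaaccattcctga
Serpina1a (chr12:103863620-103863739, minus strand): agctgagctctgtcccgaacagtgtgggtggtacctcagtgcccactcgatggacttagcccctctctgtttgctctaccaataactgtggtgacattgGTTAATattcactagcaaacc
C4bp (chr1:130661619-130661738, minus strand): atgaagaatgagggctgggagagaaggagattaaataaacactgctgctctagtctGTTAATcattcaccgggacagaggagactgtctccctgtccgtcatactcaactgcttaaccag
Slco1b2 (chr6:141629398-141629517, plus strand): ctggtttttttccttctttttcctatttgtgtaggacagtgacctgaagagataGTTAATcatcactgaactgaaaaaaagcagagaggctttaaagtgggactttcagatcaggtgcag
Hnf4a (chr2:163547035-163547154, plus strand): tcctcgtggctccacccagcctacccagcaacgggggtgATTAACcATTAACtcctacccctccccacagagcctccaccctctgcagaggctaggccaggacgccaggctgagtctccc
Cyp8b1 (chr9:121916306-121916425, minus strand): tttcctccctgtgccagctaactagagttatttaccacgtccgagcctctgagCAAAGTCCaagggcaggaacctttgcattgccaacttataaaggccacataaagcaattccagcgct
Sftpb (chr6:72304490-72304609, plus strand): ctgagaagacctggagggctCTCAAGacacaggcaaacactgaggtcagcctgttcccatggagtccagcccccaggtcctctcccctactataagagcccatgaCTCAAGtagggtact

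In these stretches the match lay at 32 to 27 bases before the start of Alb, 43 to 38 before Fga, 29 to 24 before Fgb, 21 to 16 before Serpina1a, 64 to 59 before C4bp and 66 to 61 before Slco1b2. Hnf4a itself carried 2 adjacent matches, the nearer at 74 to 69 bases. Apart from Sftpb, the genes shown were higher in liver. Fga and Fgb, which encode 2 chains of fibrinogen, had 36650, 43380 and 35700 CPM and 27700, 31490 and 26610 CPM there. C4bp, which encodes a complement inhibitor, had 1151, 1480 and 1365 CPM against at most 0.535 in lung, and Slco1b2, an uptake transporter for bile acids and drugs, had 952, 1221 and 1434 CPM against at most 0.268. Serpina1a, an antitrypsin gene, shares reads with near-identical copies and its level is uncertain.

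The hepatocyte list was higher in liver in 20 of 20 members, with a median of -11.91. Alb had 68890, 96330 and 110500 CPM in liver and 56.3, 10.9 and 23.1 in lung, and Cps1, the entry enzyme of the urea cycle, 10460, 9408 and 7424 CPM against 3.00, 0.591 and 1.18. The lung libraries were not alike in these genes: replicate 1 was highest at Alb, Fga and Cps1. Over the 20 liver genes of the largest difference with at least 200 CPM, the lung level was a median 0.0722%, 0.00873% and 0.0239% of the liver level in replicates 1, 2 and 3, and over the hepatocyte list 0.132%, 0.0314% and 0.0549% (library totals). In the other direction, 20 lung genes stood in liver at a median 0.0186%, 0% and 0.00313% of their lung level. Both sets of 20 were picked by their difference in these libraries, so low levels in the other organ follow from the choice. Over the alveolar type 2 list, an alternative chosen after seeing the data, the liver level was 0.0776%, 0.0812% and 0.148%. Levels of that size cannot be told apart from RNA or reads of the other organ. Genes of liver-type lists were therefore also asked whether their lung level exceeded 1% of their liver level in all 3 lung libraries. In 5 lists (hepatocyte, acute phase, complement, clotting and apolipoprotein genes) 38 genes did and 62 did not; 4 of the 38, Lpl, Lipg, Gpihbp1 and Pltp of the last list, were higher in lung and so are not liver-type. The other 34 had a median ratio of 1.06 between lung replicates 1 and 2, while the 55 of the 62 with a count in replicate 2 had a median ratio of 2.80. The 34 were not all alike: A2m, Cfb, Saa3, Masp1, C2 and Steap4 had ratios over 1.5, up to 2.84 at A2m. Of the 55, 40 had a ratio over 1.5.

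Genes above that level were unevenly spread over the lists. Only 2 of 20 hepatocyte markers passed it, Trf, the transferrin gene, at 272 to 295 CPM in lung, and Fah, a tyrosine-degrading enzyme, at 18.8 to 20.1. Of 20 complement components 14 passed, of 24 acute phase genes 10, of 23 clotting genes 5, and of 21 apolipoprotein and lipoprotein genes 7, the 4 higher in lung included. Hc, which encodes complement C5, reached 561, 468 and 510 CPM in lung against 1786, 1776 and 1907 in liver, a log2 difference of -1.83 ± 0.14 (adjusted p = 2.91e-05) that shrank to -0.52 on totals. C3, the central complement component, had 550, 454 and 531 CPM in lung, and Hp, which encodes the haemoglobin scavenger haptoglobin, had 505, 552 and 502. Both organs thus held these plasma protein transcripts.

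Most markers of the resident macrophages of each organ were higher in that organ. Among 15 alveolar macrophage markers 9 were higher in lung and 1 in liver (median 3.79). The summed level of this list did not separate the organs, at 797 to 1086 CPM in liver and 893 to 1055 in lung. Chil3, a chitinase-like lectin, had 465, 600 and 490 CPM in lung against 0.375 to 1.21 in liver (log2 difference 9.32 ± 0.24, adjusted p = 1.68e-10), and Siglecf, a sialic acid lectin, 16.8 to 17.8 against 0.125 to 0.244. Of 14 Kupffer cell markers 11 were higher in liver and 0 in lung (9 and 1 on totals, median -3.28). Their sum did separate them, at 1122 to 1270 CPM in liver and 172.8 to 187.5 in lung. Clec4f, a C-type lectin used to define Kupffer cells, had 138, 133 and 154 CPM in liver and 3 counts over the lung libraries; Vsig4, a complement receptor, had 37.7, 34.4 and 41.2 CPM and 2 counts. Cd163, the scavenger of haemoglobin complexes, was lower in lung but present there, at 12.01 to 12.8 CPM against 74.1 to 92.2.

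Several genes often used for 1 of these populations did not separate the organs on TMM scaling. Marco, a scavenger receptor taken here as an alveolar macrophage marker, had 16.8, 21.6 and 13.9 CPM in lung and 33.3, 32.6 and 13.4 in liver, with overlapping libraries and a difference of -0.59 ± 0.35. Mrc1, the mannose receptor, and Adgre1, which encodes the macrophage antigen F4/80, differed by 0.15 ± 0.13 and -0.47 ± 0.13. Csf1r, the receptor for the macrophage growth factor, differed by -0.26 ± 0.11 and turns to 1.05 on totals. Marco and Adgre1 also turn towards lung on totals, and Mrc1 lies more than 1 log2 unit towards lung there. The complement C1q chains C1qa, C1qb and C1qc, made by tissue macrophages, were higher in liver on TMM scaling, C1qa at 63.0 to 64.8 against 15.6 to 19.2 CPM. On totals their difference was within 2-fold. The lung level there was 61.0% to 74.1% of the liver mean at C1qa, 61.7% to 65.4% at C1qb and 50.6% to 57.8% at C1qc. Of 15 markers of interstitial and tissue macrophages 4 were higher in lung and 4 in liver, but 9 and 1 on totals. Lyz2, the lysozyme of macrophages and type 2 cells, was higher in lung at 3492, 3730 and 3591 CPM against 63.5 to 68.7.

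Neutrophil transcripts were higher in lung throughout: 14 of 14 tested members passed, with a median of 4.43. S100a8 and S100a9, the paired calgranulins of the neutrophil cytosol, had 177, 146 and 158 CPM and 286, 236 and 247 CPM in lung, against 5.35 to 8.13 and 8.42 to 10.1 in liver. The chemokine receptor Cxcr2 had 33.3 to 41.8 CPM against 1.21 to 1.63, and Mmp8, a granule collagenase, 52.3 to 62.8 against 1.47 to 2.501. No library of the other organ reached into these ranges. The granule gene Ngp, made mainly in marrow precursors, was low even in lung, at 2.52 to 4.87 CPM. Summed over the list, the lung libraries held 718 to 807 CPM and the liver libraries 34.7 to 39.0.

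Lymphocyte genes were also higher in lung, from low levels. Ptprc, the CD45 gene that all leukocytes share, had 89.5, 68.2 and 85.0 CPM in lung and 16.6 to 18.9 in liver (log2 difference 2.21 ± 0.12, adjusted p = 6.57e-07). All 11 tested B cell genes were higher in lung (median 3.27), for example Igkc, the kappa light chain constant gene, at 15.9, 8.56 and 9.70 CPM against 1.34 to 1.75; lung replicate 2 held the lowest level of Igkc, Cd79a and Ighm. Ighm missed the test when any library but lung replicate 2 was left out (adjusted p in edgeR 0.0538 to 0.124). It also missed it without the low-count filter (edgeR, 0.118), with DESeq2 (0.126) and with limma-voom (0.144). Of 16 T cell genes 10 were higher in lung and 1, Cd28, in liver, where it ranged from 2.12 to 13.3 CPM. Cd28 missed the test without lung replicate 2 or 3 (adjusted p in edgeR 0.0553 and 0.0622). It also missed it on library totals (edgeR, 0.122), without the low-count filter (edgeR, 0.1) and with limma-voom (0.0594). The T cell count of 10 in lung lay between 5 and 12 over the alternatives other than library totals. Cd3e, part of the T cell receptor, missed the test at 1.03 to 1.499 CPM against 0.366 to 0.875. Natural killer and innate lymphoid genes passed in lung in 6 of 11 cases (10 on totals). Dendritic cell genes passed in lung in 8 of 14, among them Flt3, the growth factor receptor of these cells, and the chemokine Ccl17. Of the mast cell list Kit and Gata2 were higher in lung, at 195 to 231 and 129 to 134 CPM in lung, but the mast cell proteases and Fcer1a, an IgE receptor chain, were too low to be tested, and Kit and Gata2 are also known outside mast cells.

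The 2 arms of antigen presentation went apart. MHC class II genes were higher in lung in 10 of 13 cases and in liver in 0 (median 2.65): H2-Aa had 170, 170 and 194 CPM against 26.4 to 32.1, and Cd74, the invariant chain, 363, 356 and 410 against 52.5 to 74.7. MHC class I and immunoproteasome genes were higher in liver in 6 of 15 cases and in lung in 0 (median -0.62), but on library totals the counts were 1 in liver and 2 in lung, so this direction depends on scaling. H2-Q10 was higher in liver on TMM scaling and on totals. This class I gene, whose product is secreted by hepatocytes, had 1915, 2186 and 2191 CPM in liver and 8.17 to 8.41 in lung, a log2 difference of -7.99 ± 0.17 (adjusted p = 6.70e-11).

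For the sensing of bacterial lipopolysaccharide (LPS), the plasma carrier and the receptor had their higher levels in different organs. Lbp, the liver-made protein that ferries LPS, had 743, 749 and 485 CPM in liver and 68.7, 63.9 and 49.8 in lung (-3.44 ± 0.20, adjusted p = 3.84e-07). Tlr4, the signalling receptor, went the other way, at 17.5, 19.4 and 17.3 CPM in lung and 2.20, 3.25 and 3.83 in liver (2.53 ± 0.17, adjusted p = 3.13e-06). Cd14, the co-receptor, did not pass: its libraries overlapped, at 16.5 to 17.8 CPM in lung and 8.58 to 17.6 in liver. Ly96, the MD-2 subunit that binds LPS with Tlr4, was 2.30 to 2.71 CPM in lung and 4.76 to 5.75 in liver and missed the 2-fold test. Of 24 genes in the Toll-like list only 2 were higher in lung, Tlr4 and Tlr6, and 3 in liver, Lbp and the adaptors Tirap and Ticam1; 19 passed in neither direction. On library totals the counts were 12 in lung and 1 in liver; Tirap and Ticam1, at -0.80 and -0.94 there, were no longer past 2-fold.

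Complement components and acute phase genes were nearly all higher in liver. Of 21 complement components 20 were higher in liver (15 on totals, median -4.77), and the exception was Cfd, the factor D gene of fat cells, at 6.59 to 13.6 CPM in lung with 1 count in liver. Adipoq, a fat cell hormone, also had a level in lung only, at 0.964 to 2.07 CPM, and its part in the Cfd difference was not tested. The terminal components C8a and C9 were at most 0.589 CPM in lung. Of 16 complement regulators and receptors 8 were higher in liver and 3 in lung (6 and 7 on totals, median -1.47). The leukocyte receptors did not go 1 way. C5ar1, the receptor for C5a, was higher in lung at 21.3 to 23.2 against 4.04 to 5.25 CPM. C3ar1, C5ar2 and Itgam passed in neither direction, and Vsig4 was higher in liver. All 24 acute phase genes were higher in liver under TMM scaling and on totals (median -10.42), and at least 22 under every other alternative run. Saa1 and Saa2 share reads, so only their joint direction is secure. Lcn2, the siderophore-binding lipocalin, had 2732, 4327 and 1679 CPM in liver and 133, 124 and 108 in lung.

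Of 18 tested chemokines 10 were higher in lung and 6 in liver (11 and 3 on totals). Cxcl15, a chemokine of lung epithelium, had 515.5 to 547.7 CPM in lung and 2 counts over the liver libraries. Cxcl12, which retains leukocytes, was higher in liver at 362 to 505 CPM against 71.1 to 102, and so was Cxcl1, which draws neutrophils, at 245, 354 and 228 CPM against 0.0492 to 0.321. Cytokine genes were mostly higher in lung, 12 of 16 against 1. Il33, an epithelial alarmin, had 47.2, 54.6 and 53.4 CPM in lung against 3.17 to 5.35, and Il1b had 24.8 to 31.1 against 3.66 to 10.3. Il1a alone was higher in liver, at 5.98 to 9.51 against 1.77 to 3.32 CPM; its difference of -1.63 ± 0.27 fell to -0.32 on totals. Il6, Tnf and Ifng were too low in both organs to be tested.

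Of 28 cytokine receptors 10 were higher in lung and 7 in liver (14 and 3 on totals), against 30.9% and 21.1% of all genes on TMM scaling. Il1r1, the signalling receptor for interleukin 1, was higher in liver at 717, 796 and 464 CPM against 33.4 to 36.9, while the decoy receptor Il1r2 was higher in lung at 13.1 to 18.3 against 1.25 to 1.51. Il6ra and Il6st, the receptor pair for interleukin 6, passed in neither direction. Ifngr1, the interferon gamma receptor, was higher in lung (2.33 ± 0.10). Interferon-stimulated genes were higher in liver in 9 of 24 cases and in lung in 3, but 2 and 8 on totals. Iigp1, an interferon-induced GTPase, kept its direction on totals at 584, 663 and 717 CPM in liver against 23.2 to 37.3 in lung.

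**Figure D3:**
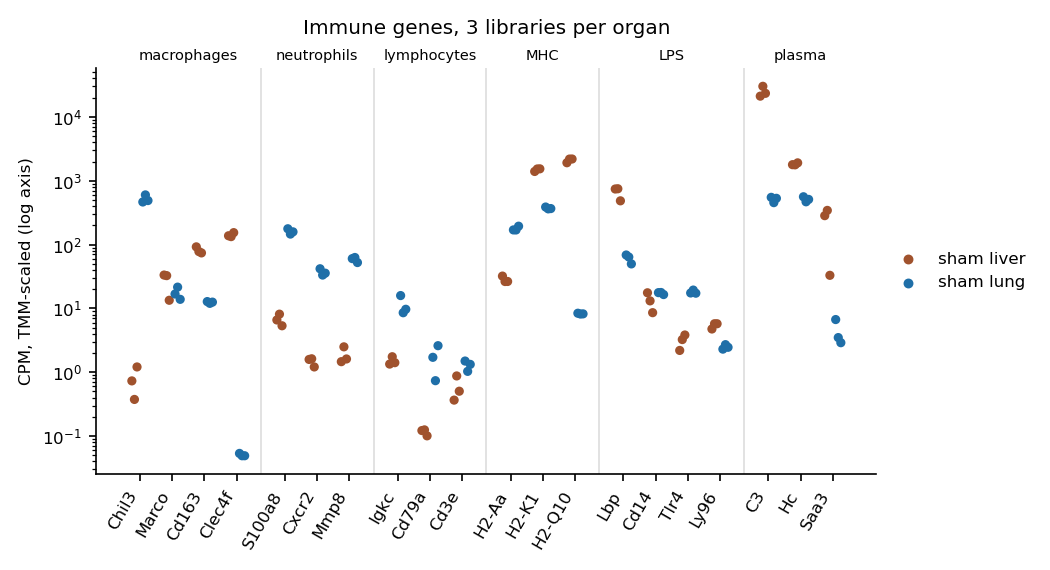
TMM-scaled CPM (log axis) of 20 immune genes in each sham liver and sham lung library, 1 point per library, grouped by cell type or function. Chil3, the neutrophil genes, H2-Aa and Tlr4 lie higher in lung, Clec4f, H2-Q10, Lbp and C3 higher in liver, and the Marco and Cd14 points of the organs overlap.

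Endothelial genes were higher in lung as a group. Of 23 general endothelial markers 21 passed in lung and 0 in liver (median 3.34), and Mmrn2 and Nos3 missed the 2-fold test. Cdh5, the cadherin of endothelial junctions, had 784, 717 and 746 CPM in lung and 48.5 to 58.9 in liver (3.79 ± 0.12, adjusted p = 1.56e-09), and Pecam1 had 605 to 678 against 42.6 to 49.3. Vwf, the von Willebrand factor gene, had 535, 485 and 481 CPM against 16.8 to 17.1. All 19 markers of lung capillaries were higher in lung (median 5.93). Car4, a membrane carbonic anhydrase of the alveolar capillary, had 158, 131 and 136 CPM and no count in liver, which makes it at least 1231-fold higher. Slc6a2, the noradrenaline transporter, was at least 1522-fold higher, at 147 to 196 CPM with no liver count. Prx, the periaxin gene, and Tmem100, a membrane protein of the BMP pathway, had 306 to 349 and 312 to 360 CPM against at most 1.31 in liver.

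Sinusoidal markers gave the opposite picture, with 12 of 18 higher in liver and 2 in lung (9 and 4 on totals, median -2.28). Stab2, a hyaluronan scavenger receptor, had 105, 157 and 148 CPM in liver and 1.43 to 1.93 in lung (-6.37 ± 0.20, adjusted p = 2.09e-09). Clec4g, a sinusoidal lectin, had 58.7, 85.4 and 91.0 CPM against 0.197 to 0.482, and Gata4, the factor that specifies sinusoidal endothelium, 30.3 to 35.1 against 0.246 to 0.482. Lyve1, a hyaluronan receptor commonly used to stain sinusoids and lymphatics, was against its list: it had 502, 524 and 369 CPM in lung and 91.2, 75.8 and 45.1 in liver (2.72 ± 0.26, adjusted p = 7.64e-05). Bmp6, the hepcidin-inducing ligand that sinusoidal cells make, was higher in lung too, at 93.3 to 123 CPM against 3.83 to 6.00. Stab1 and Flt4 did not separate on TMM scaling, at -0.64 ± 0.11 and 0.05 ± 0.07. On totals Stab1 turns to 0.67 and Flt4 lies more than 1 log2 unit towards lung. The summed level of the sinusoidal list was 963 to 1141 CPM in liver and 847 to 980 in lung, so the sum of this list does not mark the organ while Stab2 and Clec4g do.

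The angiopoietin, VEGF and apelin system was higher in lung in 18 of 22 members and in liver in 0. Of the ligands, Angpt1, which activates the receptor Tek and stabilises vessels, had 90.0, 72.2 and 78.0 CPM in lung and 0.606 to 0.750 in liver (6.92 ± 0.17, adjusted p = 1.78e-10), and its antagonist Angpt2 had 14.6 to 21.3 against 0.908 to 3.30. Vegfa, the main vascular growth factor, had 654, 596 and 633 CPM against 152 to 201. Of the receptors, Tek had 252 to 331 CPM in lung against 20.4 to 27.6, and Kdr 280 to 348 against 66.8 to 91.4. Both apelin and its receptor, Apln and Aplnr, were without a count in liver. The co-receptor Nrp1 and the ligand Vegfb did not pass.

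Of 24 genes of BMP signalling 12 were higher in lung and 5 in liver. The ligands went both ways: Bmp3, Bmp4, Bmp5 and Bmp6 were higher in lung, and Bmp2, Gdf2 and Bmp10 in liver. Of the circulating ligands that the receptor Acvrl1 binds, Gdf2 had 25.1, 27.0 and 22.1 CPM in liver and 0.0984 to 0.268 in lung, and Bmp10 5.13, 6.00 and 7.57 CPM and no count in lung, at least 123-fold higher. Receptors that bind them were higher in lung. Acvrl1 had 527, 523 and 528 CPM in lung and 3.88 to 5.13 in liver (6.93 ± 0.14, adjusted p = 4.67e-11), Bmpr2, mutated in familial pulmonary hypertension, 595, 534 and 513 against 43.3 to 44.9, and Eng 410 to 437 against 102 to 127. The receptor Bmpr1a passed in neither direction. Of the targets, Id1, Smad6 and Smad7 were higher in lung, Id2 and Hamp, the hepcidin gene that BMP signalling induces in hepatocytes, in liver, and Id3 passed in neither direction.

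Regulators of clotting on the vessel wall were higher in lung in 10 of 16 cases and in liver in 2. Thbd, thrombomodulin, had 801, 708 and 761 CPM in lung and 6.59, 25.01 and 13.5 in liver (5.66 ± 0.43, adjusted p = 2.13e-05). Plat, tissue plasminogen activator, and F3, tissue factor, were also higher in lung, at 47.1 to 62.1 and 54.8 to 58.6 CPM. F8, clotting factor VIII, known from sinusoidal endothelium, was higher in liver at 29.5 to 39.2 CPM against 1.33 to 2.02, as was Adamts13, the protease that cuts von Willebrand factor, so Vwf and its protease had their higher levels in different organs. In the renin-angiotensin system the substrate gene Agt was higher in liver, at 637.9, 901.1 and 756.3 CPM against 1.92 to 2.73, and the converting enzyme Ace higher in lung, at 1568, 1490 and 1401 CPM against 2.02 to 3.66 (9.08 ± 0.22, adjusted p = 1.02e-10). The receptor Agtr1a was higher in liver, at 86.3 to 106 CPM against 22.8 to 23.7. Adhesion molecules passed in lung in 8 of 16 cases and in liver in 0 (15 and 0 on totals). Icam1 had 272 to 294 CPM in lung against 41.6 to 75.8, while Vcam1, Selp and Sele passed in neither direction, at -0.33 ± 0.24, 0.76 ± 0.24 and 1.78 ± 0.62.

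**Figure D4:**
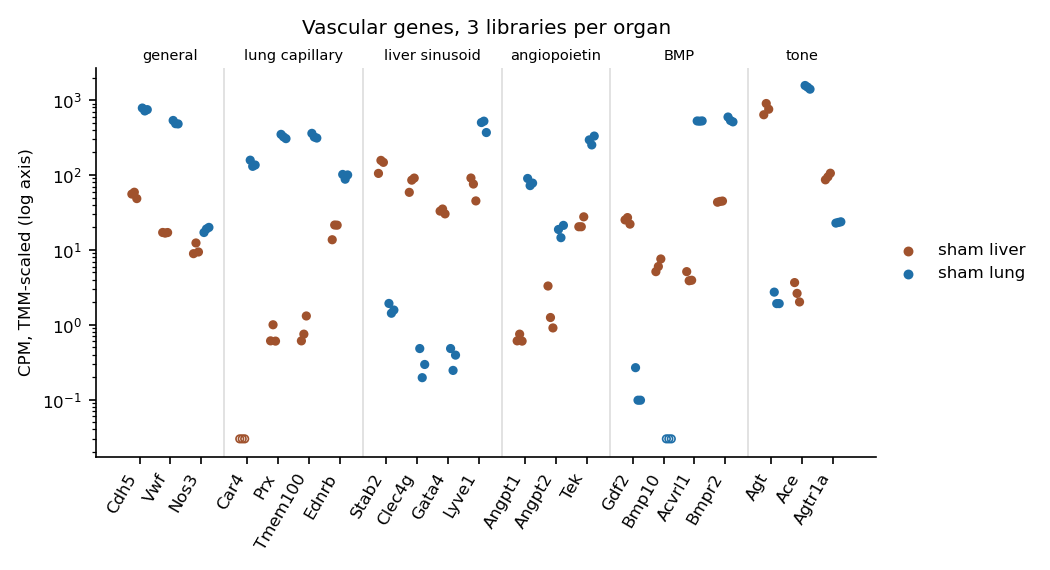
TMM-scaled CPM (log axis) of 21 vascular genes in each sham liver and sham lung library, 1 point per library; open circles at the lower edge stand for 0 counts. General and lung capillary genes, Tek, Acvrl1, Bmpr2 and Ace lie higher in lung, Stab2, Clec4g, Gata4, Gdf2, Bmp10, Agt and Agtr1a higher in liver, and Lyve1 lies with the lung.

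Matrix and mural genes were higher in lung. Of 25 matrix genes 22 were higher in lung and 2 in liver (median 3.97). Eln, the elastin gene, had 142, 162 and 138 CPM in lung and 2.56 to 2.63 in liver, and Sparc, a collagen chaperone, 1260 to 1331 against 69.2 to 82.5. The 2 exceptions were plasma proteins as much as matrix: Fn1, fibronectin, at 6629 to 7606 CPM in liver and 362 to 468 in lung, and Vtn, vitronectin, at 4154 to 4811 against 12.6 to 15.8. Smooth muscle genes passed in lung in 14 of 17 cases and mesothelial genes, from the organ surface, in 9 of 10. Stellate cell markers were higher in liver in 9 of 16 cases and in lung in 3 (5 and 5 on totals). Hand2, a factor of stellate cells, had 9.89 to 10.4 CPM in liver and at most 0.246 in lung, whereas Lrat, which stores vitamin A as esters, was alike, at 11.6 to 15.3 and 11.1 to 14.9 CPM, on TMM scaling and 1.26 higher in lung on totals.

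Most metabolic lists had most of their genes higher in liver on TMM scaling. The glycolysis, clock, growth hormone and retinoid lists did not. Of 16 retinoid genes 5 were higher in liver and 2 in lung, but 4 and 9 on totals. All 21 bile acid genes and 24 of 26 genes of amino acid breakdown were higher in liver, with medians of -10.59 and -8.20, and so were 21 of 22 genes of fatty acid oxidation (18 on totals) and 12 of 14 of the urea cycle. Abcb11, the canalicular bile salt pump, had 595 to 772 CPM in liver and at most 0.268 in lung. Cpt1a, which admits fatty acids to mitochondria, was lower in lung but well above the cross-organ level, at 188 to 198 CPM against 1561 to 1834. Glul, glutamine synthetase, was also shared, at 475 to 634 CPM in lung and 1300 to 1907 in liver. Clotting factors made by hepatocytes were higher in liver in 22 of 23 cases, the remaining gene being Pros1, the protein S gene, at 102 to 114 CPM in lung and 136 to 158 in liver (-0.42 ± 0.09, turning to 0.89 on totals).

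For 10 chosen pairs of genes that encode forms of the same activity, the shares of the 2 forms differed between the organs. The share of each form was taken per kilobase of exon within a library, a ratio that no scaling between libraries can move. Pklr, the liver form of pyruvate kinase, was 97.4% ± 0.955 of the sum with Pkm in liver and 0.346% ± 0.145 in lung (SD, n = 3 each). Shares changed in the same way for glucose transporters (Slc2a2 against Slc2a1, 93.9% and 0.424%) and glycogen synthases (Gys2 against Gys1, 98.8% to 99.4% over the liver libraries and a mean of 0.687% in lung). Methionine adenosyltransferase moved from Mat1a in liver (99.2%) to Mat2a in lung (91.7%). Pfkl, Cox4i1 and Scd1, which led in liver, also held the larger mean share in lung, narrowly for Scd1. Their mean lung shares against Pfkp, Cox4i2 and Scd2 were 61.7%, 63.7% and 52.0%. In none of the 10 pairs did a lung library overlap a liver library. Other gene pairs were not compared, and 84.1% of all genes tested differed between the organs, so this does not set these pairs apart.

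Arg1, the urea cycle arginase, had 3418, 3890 and 3094 CPM in liver and 1.48 to 1.93 in lung, and Arg2, its mitochondrial paralog, 8.51 to 10.7 CPM in lung and 0.404 to 0.5003 in liver. Scd2, a desaturase, had 833, 756 and 704 CPM in lung and 7.57 to 10.1 in liver (6.44 ± 0.15, adjusted p = 1.23e-10), and with Scd1 at 676 to 820 CPM the lung held both at nearly equal length-corrected levels (Scd1 share 52.0% ± 1.92). Ldhb, the lactate dehydrogenase subunit of oxidative tissues, had 60.6 to 63.2 CPM in lung and 1.13 to 2.08 in liver, while Ldha was higher in liver at 1634, 2385 and 2062 CPM against 81.0 to 92.1. Cox4i2, a hypoxia-linked isoform of cytochrome oxidase subunit 4, had 24.1 to 28.4 CPM in lung and 1 count over the liver libraries, and made up 36.3% of the pair in lung. It was the sole member of the respiratory chain list higher in lung, where 22 of 24 were higher in liver; on totals those counts were 2 and 6 and the list median moved from -2.14 to -0.83, so the number past 2-fold rests on the scaling. The glycolysis list as a whole was even, with 9 of 24 genes higher in each organ (14 in lung and 6 in liver on totals).

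**Figure D5:**
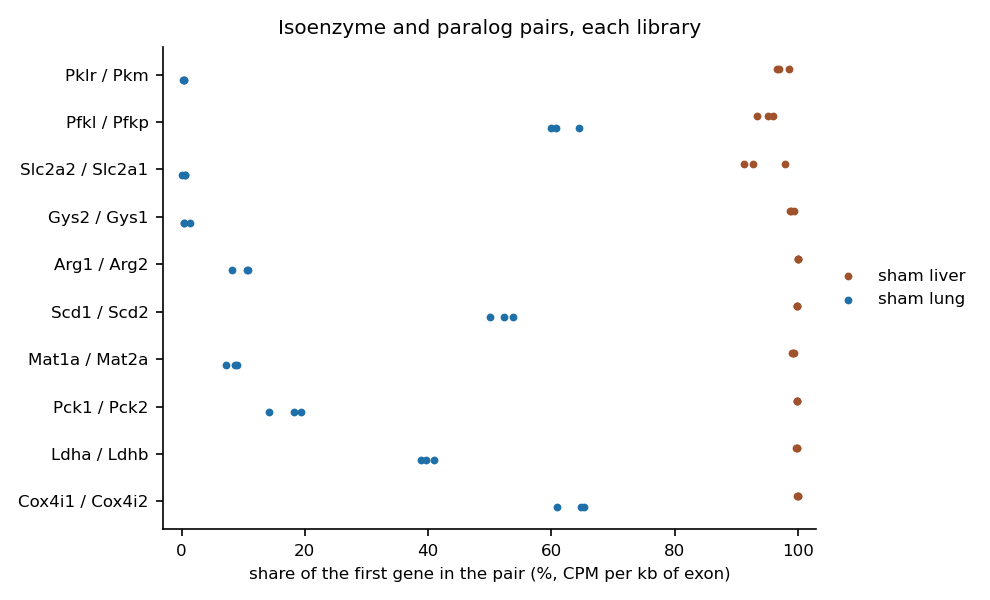
Share of the first-named gene in 10 pairs of isoenzymes or paralogs (percent of the pair's summed CPM per kilobase of exon), 1 point per library. Liver libraries lie above 90% for every pair, and lung libraries lie below 20% for all but Pfkl, Scd1, Ldha and Cox4i1.

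Fasn, fatty acid synthase, which both cell types use, did not pass the 2-fold test, at 446 to 466 CPM in lung and 591 to 896 in liver (-0.65 ± 0.16, turning to 0.67 on totals). Abca3, which loads surfactant lipid into lamellar bodies, had 440, 447 and 462 CPM in lung and 121 to 132 in liver (1.82 ± 0.09), and Lpcat1, which remodels surfactant phosphatidylcholine, 276 to 326 against 3.66 to 6.13. Of 23 apolipoprotein and lipoprotein genes 18 were higher in liver (median -8.85, or -8.37 with Apoc2, which had no count in lung, put at its bound). The 4 higher in lung act on lipoproteins at the vessel wall or in plasma: Lpl, lipoprotein lipase, at 550, 491 and 352 CPM against 29.2 to 47.7, its anchor Gpihbp1 at 108 to 126 against 23.4 to 24.9, Lipg and Pltp. Cholesterol synthesis genes were higher in liver in 15 of 22 cases and in lung in 1, but in 6 and 3 on totals. Abcg1, a sterol exporter active in alveolar macrophages, was higher in lung at 82.2 to 88.1 CPM against 8.07 to 10.5.

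Drug-metabolising enzymes were mostly higher in liver. Of 23 cytochrome P450 genes 15 were higher in liver, among them Cyp2e1 and Cyp3a11, and 6 in lung. The shares over all genes tested were 21.1% and 30.9%. Of 26 conjugation and other drug-metabolising enzymes 21 were higher in liver and 2, Fmo1 and Fmo2, in lung (16 and 4 on totals). Cyp4b1, an enzyme that activates furans and fatty acids, had 676, 702 and 649 CPM in lung and 23.2 to 28.6 in liver (4.71 ± 0.12, adjusted p = 2.82e-10), and Cyp2s1 and Cyp2b10 had 67.5 to 79.6 and 295 to 416 CPM in lung against at most 0.855 and 56.4. The flavin monooxygenase Fmo2 had 1533, 1616 and 1544 CPM in lung and 20.1 to 35.2 in liver, its paralog Fmo1 was higher in lung by 1.59 ± 0.13, and Fmo5 was higher in liver at 1146 to 1360 CPM. Antioxidant genes were higher in liver in 14 of 25 cases (8 on totals), with the secreted enzymes Gpx3 and Sod3 the other way, at no less than 910 and 142 CPM in lung against 9.39 to 19.5 and 27.8 to 30.4. Prdx6, a peroxiredoxin with surfactant phospholipase activity, missed the 2-fold test on TMM scaling (1.16 ± 0.14).

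Growth and timing genes closed the comparison. Igf1, which the liver secretes under growth hormone, had 623, 811 and 873 CPM in liver and 4.08 to 6.20 in lung, while its receptor Igf1r had 108 to 115 CPM in lung and 5.25 to 10.0 in liver. The binding protein genes divided, with Igfbp1, Igfbp2 and Igfbp4 higher in liver and Igfbp5, Igfbp6 and Igfbp7 in lung. Of 17 clock genes 3 were higher in lung and 2 in liver, but 10 and 1 on totals. Clock differed by -0.18 ± 0.12 and Dbp by -0.08 ± 0.26, and both were higher in lung by more than 1 on totals (1.13 and 1.23). Housekeeping genes showed the effect of scaling. Their median log2 difference was -0.75 on TMM scaling and 0.56 on totals, and 8 of 24 were higher in liver and 1 in lung, against 2 and 5 on totals.

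The highest genes whose 95% interval lay within 0.5 of 0 on TMM scaling were, besides Cyp2f2, Itm2b, Aldh1a1, Psap, Gnas, Hnrnpu, Actn4, Arhgef12, Ndst1 and Sf3b1. Itm2b, a membrane protein gene of most cells, had 1074, 1064 and 1055 CPM in lung and 969, 1034 and 1005 in liver. Aldh1a1, which makes retinoic acid, had 989 to 1066 CPM in lung and 765 to 997 in liver. Psap, the lysosomal prosaposin gene, had 557 to 573 and 572 to 589 CPM. On library totals each of these genes was higher in lung, from 1.10 at Hnrnpu to 1.52 at Ndst1, so their likeness holds for TMM scaling only.

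RNA of other tissues was looked for with marker lists. The lung libraries carried heart muscle transcripts: 9 of 10 markers were higher in lung and summed to 406, 352 and 343 CPM there, against 1.00 to 2.32 in liver. Myh6, the atrial and adult ventricular myosin heavy chain, had 189, 147 and 138 CPM and no count in liver, and Nppa, the atrial peptide, 2.84, 9.79 and 1.28. Heart-type muscle is known in the wall of mouse pulmonary veins, and what part of this RNA came from there was not tested. Haemoglobin genes summed with other erythroid genes to 938, 746 and 1192 CPM in lung and 203 to 324 in liver, and their copies share reads. Skeletal muscle and pancreatic markers summed to at most 10.3 and 16.6 CPM in any library. Fabp2, a fatty acid carrier best known from the intestine, had 64.0, 90.1 and 100.3 CPM in liver. The Y-linked genes Ddx3y, Eif2s3y, Uty and Kdm5d had counts in all 6 libraries and Xist at most 0.366 CPM.

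The libraries of each organ were close. Among genes with at least 10 CPM, the median SD of log2 CPM between the 3 libraries was 0.129 in liver (8631 genes) and 0.0819 in lung (9019 genes), and 227 liver genes but 21 lung genes had an SD over 0.5. Leaving out predicted genes, the 5 with the largest SD in liver were Cyp4a14, Serpina3c, Cyp7a1, Saa3 and A2m. Cyp7a1, which controls the first step from cholesterol to bile acids, had 33.9, 6.88 and 96.6 CPM, Cyp4a14, a fatty acid hydroxylase, 83.7, 939 and 884, Saa3, an inducible serum amyloid gene, 284, 343 and 33.0, and A2m, a protease inhibitor, 78.5, 151 and 13.9. Cyp7a1, Cyp4a14, Saa3 and A2m passed the 2-fold test in liver with edgeR (adjusted p = 0.012, 0.00346, 0.013 and 0.0108), with standard errors of 2.00, 1.67, 1.14 and 1.29 on the log2 scale. None of the 4 passed it with limma-voom (adjusted p = 0.0505, 0.0843, 0.0789 and 0.12). In edgeR Cyp7a1 also missed it without lung replicate 3 (adjusted p = 0.0509), and Saa3 without lung replicate 2 or 3 (adjusted p = 0.0519 and 0.0561). In lung the spread was widest at Bpifa1, Bpifb1, Alb, Doc2b and Zbtb16.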

How the data were processed

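Total RNA of whole organs preserved in RNAlater was made into stranded TruSeq libraries, per the labels' protocols. The authors deposited raw read counts per Ensembl gene; the submitters' processing notes name STAR 2.7.10a, featureCounts, FastQC, DESeq2 and the mm39 build without roles. How strand and multi-mapped reads were counted is not given in the sources used here, so near-identical copies (Saa1 and Saa2, haemoglobins, Serpina1) and genes that overlap another gene on the opposite strand are uncertain; of those named, Nos3, Pklr, Glul, Eng, Bmp6, Pltp, Csf1r, Tirap, Cox4i1, Arg2, Gys1, Igfbp7, Actn4, Hnrnpu, Gnas and Dbp overlap a protein-coding gene. Of 55414 identifiers, 52081 matched a symbol and 52133 an exon length in GRCm38 annotation, which is not the authors' build; no genome coordinates of the counts were used, and promoter sequences are RefSeq's on GRCm38.p6.

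Counts of the 6 sham libraries were filtered with edgeR's filterByExpr (minimum count 10, minimum total 15), scaled by TMM and tested with edgeR 4.0.16 (quasi-likelihood, robust) in R 4.3.3, with Benjamini-Hochberg adjustment over all genes tested. Calls use the test against a log2 difference of 1 at an adjusted p below 0.05. The standard error is the fitted difference divided by the square root of F and is approximate. CPM are TMM-scaled unless library totals are named. DESeq2 1.42.0, limma 3.58.1 and other scalings, filters and left-out libraries were alternatives, and scripts were tested on simulated data. The floor for genes without a count is 3 counts over the libraries of an organ.

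The comparison, the 73 lists (1186 different genes) and the tests were chosen with earlier results of these data known. Named genes are the 10 highest in each organ, the 10 largest differences each way, the highest and lowest-p members of each list and the member most against its list, a fixed set, the 10 highest genes alike in both organs, and the 5 most variable in each organ; other list members named were chosen after their values were seen.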

Additional observations from a re-analysis of the deposited data

How the results depend on the processing

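Scaling was the choice that mattered. On library totals 11587 genes were higher in lung and 2422 in liver at an adjusted p below 0.05 (edgeR), and 8665 and 1450 past the 2-fold test. Of the genes higher in liver at an adjusted p below 0.05, 2917 turned direction on totals. Genes whose log2 difference turned towards lung on totals included, besides others given above, Cidec (0.05), Cyp2f2 (1.18), Dcn (0.48), Ddx3y (0.39), Eef2 (0.36), Eif2s3y (0.32), Fasn (0.67), Fth1 (0.73), Gnas (1.19), Hnrnpu (1.10), Il6st (1.01), Irak1 (0.58), Pros1 (0.89), Psap (1.28, and 0.23 with upper-quartile scaling), Rora (1.03), Stab1 (0.67) and Uty (0.57). All other scalings, filters and tools run gave total counts within 1.5 times the main ones. Leaving out each library in turn gave 6881 to 7064 genes higher in lung and 5759 to 6069 in liver, and 4701 to 4864 and 3188 to 3425 past the 2-fold test. The median share of lung markers in liver replicate 1 was 0% with markers of at least 50 CPM, 0.0430% on TMM-scaled sizes and 0.0776% with the marker list as written, an alternative chosen after seeing the data, which gave 0.0812% and 0.148% in liver replicates 2 and 3. The share of liver markers in lung replicate 1 was 0.0134%, 0.0293% and 0.132% under these settings. Equal replicate numbers were not taken as pairs, because the labels do not say what they mark and the deviations of equal-numbered lung and liver libraries did not all correlate above 0.1: they stood at -0.0442, 0.0864 and 0.122 over 7690 genes, and lung 2 and lung 3, but not lung 1, correlated best with their own number. A replicate block gave 6975 and 5871 genes, and 4732 and 3231 past the 2-fold test. Genes at 3 counts or fewer in an organ have no usable fold change.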

Other observations

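Among 7043 genes with at least 10 CPM in both organs, Egr1 and Zbtb16 had an SD of log2 CPM over 0.5 in both. Zbtb16, a zinc finger factor known to respond to glucocorticoids, had 76.9, 89.9 and 11.1 CPM in liver and 191.6, 225.9 and 63.0 in lung. Fkbp5, a glucocorticoid-induced chaperone, had 371.0, 494.7 and 265.5 CPM in liver and 131.6, 180.2 and 56.9 in lung. The library numbered 3 was lowest in both organs at 6 of 10 genes looked at: these 2, Pdk4, Mt2, Serpina3c and Cdkn1a. Tsc22d3, also induced by glucocorticoids, was among the 4 that did not, with 53.6, 53.4 and 100.9 CPM in liver and 343.8, 401.2 and 414.2 in lung. These genes were chosen after their values were seen, and the labels do not say whether equal numbers mark the same mouse.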
